A study of Mus musculus with 6 samples.

Results

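The genes described here are the lysosome and autophagy genes of cultured mouse astrocytes: lysosomal membrane proteins, acid hydrolases and their cofactors, the proton pump, the TFEB family of transcription factors and the autophagy machinery. They were chosen by symbol from a list of 41 names. Of these, 40 are among the 14147 genes listed in the deposited table, and the remaining name, Limp2, is an older name of Scarb2. The RNA came from primary mouse astrocytes, a glial cell type of the brain, labelled as wild type and as the 24 h time point. One group of 3 libraries is labelled AQP4-IgG, human antibody against the astrocyte water channel aquaporin-4, which is the serum marker of neuromyelitis optica. The other 3 libraries are labelled Control-IgG, a human control antibody. The sources give neither strain, age nor sex of the animals, and leave unsaid whether each library is its own culture, so p-values cover only the spread among these libraries, possibly a technical one. The series title mentions conditioned medium, so how the antibody reached the cells is not certain.

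Lysosomes are acidic organelles in which hydrolases break down protein, glycans, lipids and nucleic acids delivered by endocytosis or by autophagy. The V-type proton pump acidifies the lumen, heavily glycosylated membrane proteins line it, and TFEB, TFE3 and MITF drive transcription of many lysosomal genes through a promoter element named CLEAR. In autophagy, ULK1 and the Beclin-1 lipid kinase complex start a membrane sac, WIPI proteins bind its lipid, ATG7 and ATG5 couple LC3 and GABARAP proteins to it, and receptors such as p62 load the cargo. Astrocytes use this system to degrade material taken up from their surroundings, and endocytosed surface proteins can end in the same compartment.

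The CLEAR letters stand in several of these promoters, which is why the stretches are shown before the levels. RefSeq promoter windows of GRCm38.p6, from 250 bases before to 50 bases after a gene's start, were matched by symbol to 33 of the 40 genes. Both strands were covered, since the searched letters read the same on each. The element TCACGTGA stood in windows of 5 of the 33 genes, 15.2%, and in 1.12% of all 27025 genes with a window. Its inner core CACGTG, which lies within every TCACGTGA, stood in 11 of the 33, 33.3%, against 8.09% of all genes. A longer form of the element was in 0 of the 33 and in 0.37% of all genes. The sequences below run 5′ to 3′ on the gene's own strand, with TCACGTGA in capitals, or CACGTG in the case of Lamp1, whose window holds 4 copies.
Ctsa, chr2:164833734-164833810, plus strand: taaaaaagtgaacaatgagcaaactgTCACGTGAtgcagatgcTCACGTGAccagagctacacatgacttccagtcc
Ctsd, chr7:142387893-142387952, minus strand: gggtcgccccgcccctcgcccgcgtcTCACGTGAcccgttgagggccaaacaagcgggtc
Mcoln1, chr8:3500447-3500506, plus strand: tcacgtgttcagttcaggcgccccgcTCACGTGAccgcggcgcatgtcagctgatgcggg
Atp6v0d1, chr8:105566035-105566094, minus strand: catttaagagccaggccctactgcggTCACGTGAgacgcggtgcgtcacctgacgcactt
Atp6v1a, chr16:44139358-44139417, minus strand: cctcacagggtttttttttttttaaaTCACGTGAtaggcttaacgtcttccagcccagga
Lamp1, chr8:13159074-13159177, plus strand: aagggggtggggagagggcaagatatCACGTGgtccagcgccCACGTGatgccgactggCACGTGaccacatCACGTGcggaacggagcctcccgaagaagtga
Counted from the RefSeq start on which the window was set, which can differ from the gene coordinates given below, the capitals begin 99 bases upstream in Ctsd, 46 in Mcoln1 and 4 in Atp6v0d1. These matches are a description of letters in a window, and a gene without a match may hold the element elsewhere.

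All values below are FPKM, reads or fragments scaled by exon length and library total, as the authors deposited them. Converted back to whole reads, the libraries held 17920000 to 20610000 reads, Control-IgG 2 being the shallowest. At that depth the 40 genes held between 194 reads, for Mitf, and 32021 reads in a library. All 14 astrocyte markers were listed and tested, and 3 were higher under AQP4-IgG, Aqp4, Slc1a3 and Slc1a2 (adjusted p of 0.0216, 0.0304 and 0.0464 in limma). Of the 8 fibroblast and mural markers tested, 1 was lower, Acta2 (adjusted p = 0.0243 in limma). Of 17 microglia and macrophage markers 16 were listed, and their summed level was 338 to 387 FPKM under AQP4-IgG and 370 to 477 FPKM under Control-IgG. Of the 15 tested, 1 was lower, Cx3cr1 (adjusted p = 0.0427 in limma), and 0 were higher. The fitted difference was below 0 in 13 of these 15, with a median log2 fold change of -0.21. At an unadjusted p under 0.05 in limma, 5 of them lay lower, where 5.68% of all genes did. Itgam went the other way at that level, 1.36-fold higher under AQP4-IgG (adjusted p = 0.0707 in limma). Of 10 oligodendrocyte lineage markers 6 were listed, summing to 222 to 242 FPKM against 248 to 259.7 FPKM, and 0 of the 4 tested passed. Since these are bulk samples, fewer cells of a type and less RNA per cell cannot be told apart.

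With AQP4-IgG the lysosome and autophagy genes stayed close to their control levels. In limma, a linear model with moderated variances fitted on log2(FPKM + 1) over 12334 genes, 0 of the 40 passed a Benjamini-Hochberg adjusted p of 0.05 in either direction. Over all genes 2.09% passed, 1.46% higher and 0.632% lower. The smallest adjusted p among the 40 was 0.074, for Wipi1. At an unadjusted p under 0.05, 8 of the 40 lay higher and 1 lower under AQP4-IgG, where 7.64% and 5.68% of all genes did. The groups did not overlap in 9 genes on the higher side, 22.5% of the 40, and in 1 on the lower side, beside 10.4% and 8.58% of all genes.

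The fitted difference was above 0 in 30 of the 40 genes and in 6168 of the 12334 genes tested. The 40 differences, in log2 units, had a median of 0.047, quartiles of 0.01 and 0.09 and a range from -0.10 to 0.21. All genes tested had a median of 0.00 and quartiles of -0.06 and 0.06. The 95% interval of the difference lay within 0.25 log2 units of 0 in 32 of the 40 and within 0.5 log2 units in all 40. Other tools and filters moved the count of calls. Limma-voom on recovered reads called 3 genes higher, Wipi1, Scarb2 and Lamp2 (adjusted p of 0.0212, 0.0219 and 0.0404), where it called 2.83% of its genes higher. With only genes of at least 10 FPKM tested, Wipi1 alone passed in limma (adjusted p = 0.0423), with 2.79% of genes called higher, and likewise without AQP4-IgG 3 (adjusted p = 0.0467), with 1.01%. In the authors' deposited table, 3 of the 40 have an adjusted p under 0.05, Ctsb, Lamp2 and Lamp1 (0.00819, 0.0451 and 0.0483), all on the higher side, as have 2.03% of its genes. The authors' deposited table marks the regulation of all 40 as "no".

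**Figure D1:**
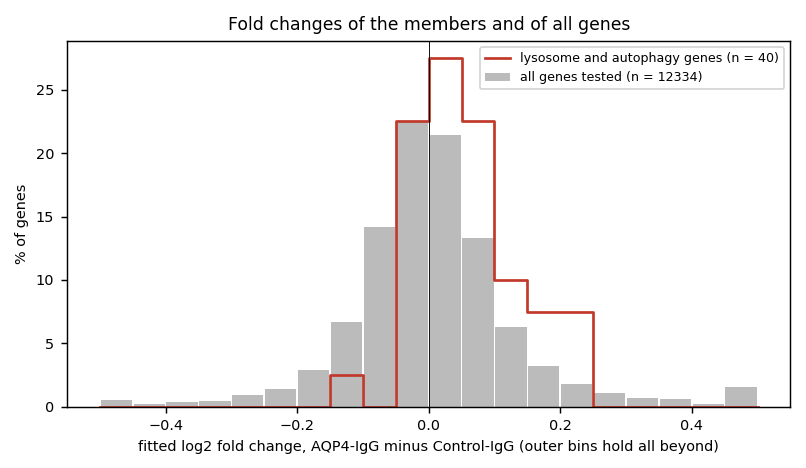
Share of genes (%) by fitted log2 fold change, AQP4-IgG minus Control-IgG, in bins of 0.05, for the 40 lysosome and autophagy genes (line) and all 12334 genes tested (bars). All 40 lie between -0.10 and 0.21, and 30 of them lie above 0.

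The 40 genes also differed between libraries of the same antibody. Relative to the Control-IgG mean, in log2 units, their median was 0.090 for AQP4-IgG 1, 0.043 for AQP4-IgG 2 and 0.038 for AQP4-IgG 3. It was 0.065 for Control-IgG 1, -0.055 for Control-IgG 2 and -0.012 for Control-IgG 3. The first control library thus lay above 2 of the 3 AQP4-IgG libraries. Over all genes the same medians stayed between -0.010 and 0.009. Among the controls, Control-IgG 1 was the highest library for 31 of the 40 genes (77.5%), against 39.1% of all genes tested. It also held the highest summed level of microglia and macrophage markers, 477 FPKM, and the part of those cells in the levels was not tested. AQP4-IgG 1 was the highest of its group for 28 of the 40 (70.0%, against 40.1% of all genes). The median log2 fold change was 0.019 without AQP4-IgG 1, 0.083 without Control-IgG 1, 0.021 without Control-IgG 2 and 0.029 without Control-IgG 3.

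**Figure D2:**
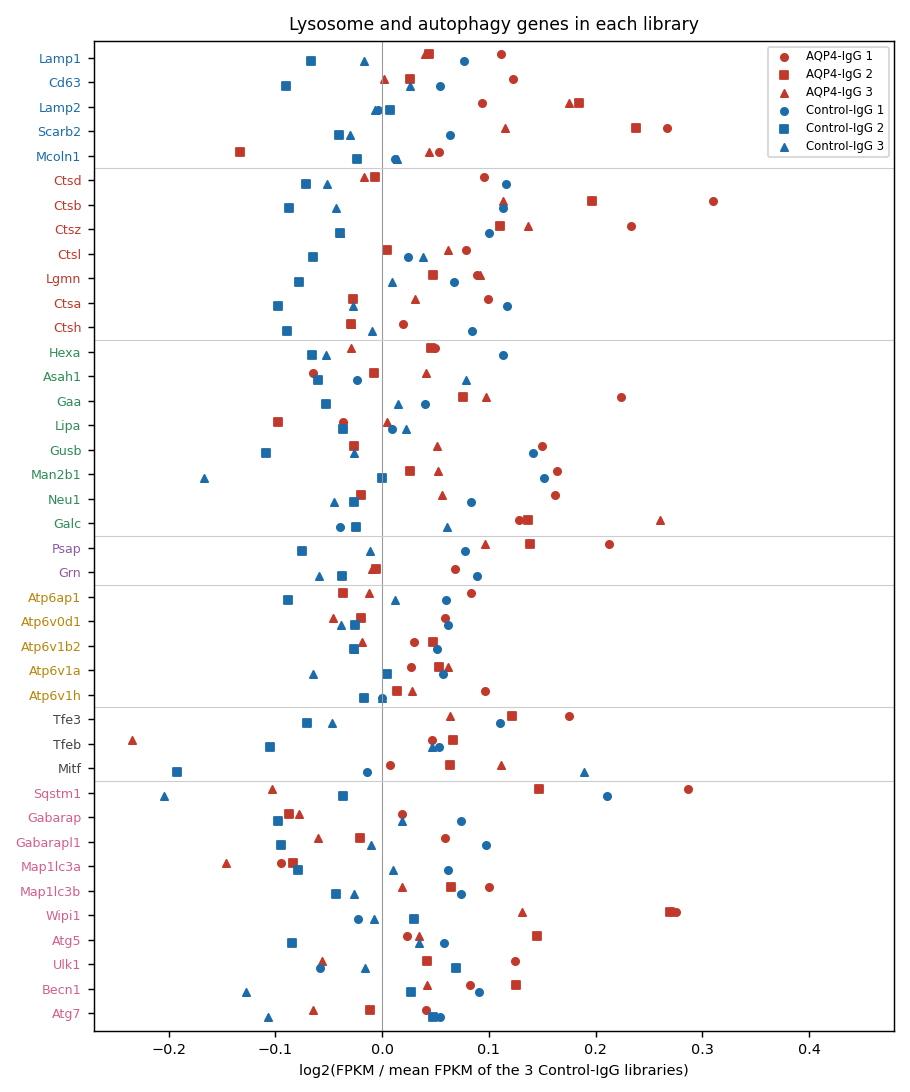
Level of each of the 40 genes in each library as log2 of FPKM over the mean of the 3 Control-IgG libraries; red symbols are AQP4-IgG 1 to 3, blue symbols Control-IgG 1 to 3, and name colours and lines mark role groups. AQP4-IgG 1 and Control-IgG 1 (circles) lie to the right in most rows. The groups do not overlap in 9 genes on the higher side, among them Scarb2, Lamp2, Wipi1 and Galc, and in 1 on the lower side.

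Among the membrane proteins, Lamp2 and Scarb2 were higher in every AQP4-IgG library, while the most abundant, Lamp1, overlapped. Lamp2, which lines the lysosome and is needed for fusion with autophagosomes and for chaperone-mediated autophagy, stood at 43.0, 45.8 and 45.5 FPKM in AQP4-IgG 1 to 3 and at 40.2, 40.5 and 40.1 FPKM in Control-IgG 1 to 3. The groups did not overlap, and the control libraries were nearly equal. The gene lies on the minus strand of chromosome X (38401357 to 38456454, GRCm38). Its mean was 44.8 ± 1.56 FPKM against 40.3 ± 0.236 FPKM (SD, n = 3 each), a ratio of 1.11 and a fitted log2 difference of 0.15 (SE 0.040, adjusted p = 0.117 in limma).

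Scarb2, on chromosome 5 (92441314 to 92506833, minus strand), encodes LIMP-2, the receptor that carries glucocerebrosidase to the lysosome. Its levels were 34.9, 34.2 and 31.4 FPKM under AQP4-IgG and 30.3, 28.2 and 28.4 FPKM under Control-IgG, again without overlap. The difference of 1.16-fold (log2 fold change 0.20, SE 0.052) had an adjusted p of 0.103 in limma. Lamp1, the other main glycoprotein of the lysosomal membrane, read 456, 435 and 434 FPKM under AQP4-IgG and 445, 403 and 417 FPKM in the controls, so that Control-IgG 1 lay above 2 AQP4-IgG libraries. Its 95% interval for the log2 fold change ran from -0.04 to 0.17. The tetraspanin Cd63, a protein of late endosomes and exosomes, averaged 103 ± 4.43 and 99.2 ± 5.24 FPKM, and 11% of its 50-base stretches also occur in other transcripts, such as a pseudogene. The calcium channel gene Mcoln1 had the lowest level of the group, 7.34 ± 0.527 and 7.39 ± 0.104 FPKM. Its promoter holds TCACGTGA, as shown above, and its interval was -0.15 to 0.12.

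Of the 7 proteases, Ctsb and Ctsz did not overlap between groups, while the most abundant, Ctsd, did. Ctsb encodes cathepsin B, a cysteine protease, and is on chromosome 14 (63122462 to 63145923, plus strand). It measured 212, 196 and 185 FPKM under AQP4-IgG and 185, 161 and 166 FPKM under Control-IgG. The lowest AQP4-IgG and the highest Control-IgG library were almost level. The means of 197 ± 13.3 and 171 ± 12.7 FPKM differed 1.16-fold, or by 0.21 log2 units (SE 0.065, adjusted p = 0.189 in limma). Of the exon bases of Ctsb, 12.8% overlap Fdft1 on the opposite strand, and the sources do not say whether reads were counted by strand.

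Ctsz, cathepsin Z, a carboxypeptidase gene on chromosome 2 (174427493 to 174439039, minus strand), followed with 130.5, 119.8 and 122 FPKM against 119, 108 and 108 FPKM, 1.12-fold (adjusted p = 0.216 in limma). Control-IgG 1 lay just below the lowest AQP4-IgG library. Cathepsin D, the main aspartic protease of the lysosome, overlapped: Ctsd read 486, 453 and 449.7 FPKM under AQP4-IgG and 493, 433 and 439 FPKM in the controls. Its highest library was Control-IgG 1 at 493 FPKM, and its interval of -0.10 to 0.16 includes 0. An annotated transcript on the same strand, Gm49369, covers 34.4% of its exon bases, so that share of its level is uncertain. Ctsl, Lgmn, Ctsa and Ctsh, encoding cathepsin L, the asparaginyl endopeptidase legumain, the sialidase-protecting carboxypeptidase cathepsin A and cathepsin H, had means between 14.9 and 68.6 FPKM under AQP4-IgG. Their log2 fold changes of -0.01 to 0.08 had adjusted p of 0.562 or more in limma, and all 4 overlapped. Other annotated genes cover 26.8% of the exon bases of Ctsl and 17.4% of those of Ctsa.

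Of the glycosidases and lipid hydrolases, Galc and Gaa were the genes whose groups did not overlap. Galactosylceramidase, encoded by Galc on chromosome 12 (98202294 to 98259459, minus strand), breaks down the myelin lipid galactosylceramide. Its levels were 8.94, 8.99 and 9.80 FPKM under AQP4-IgG and 7.96, 8.04 and 8.53 FPKM under Control-IgG, 1.13-fold (log2 fold change 0.16, SE 0.055, adjusted p = 0.234 in limma). AQP4-IgG 3, not AQP4-IgG 1, was highest here, and Control-IgG 1 was lowest. Gaa, on chromosome 11 (119267887 to 119285454, plus strand), encodes acid alpha-glucosidase, which degrades glycogen. It read 45.3, 40.9 and 41.5 FPKM against 39.9, 37.4 and 39.2 FPKM, 1.10-fold (adjusted p = 0.293 in limma). Neither passed the adjusted test.

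The remaining 6 of this group overlapped. Hexa, the alpha subunit of beta-hexosaminidase and the most abundant of them, read 92.3, 92.1 and 87.4 FPKM under AQP4-IgG and 96.5, 85.2 and 86.0 FPKM in the controls, its highest value being in Control-IgG 1. Asah1, acid ceramidase, averaged 72.5 ± 2.64 and 73.0 ± 3.67 FPKM, and Lipa, lysosomal acid lipase, 31.3 ± 1.15 and 32.2 ± 0.676 FPKM. These 2 lipid hydrolases had fitted differences just below 0. Gusb, Man2b1 and Neu1, encoding beta-glucuronidase, an alpha-mannosidase and the lysosomal sialidase, had log2 fold changes of 0.06, 0.08 and 0.06, with adjusted p of 0.767 or more in limma. Leaving out 1 library moved these to between 0.0039 and 0.12 for Gusb, 0.0031 and 0.15 for Man2b1, and 0.01 and 0.09 for Neu1.

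The cofactor Psap was the most abundant of the 40 genes. On the plus strand of chromosome 10 (60277627 to 60302597), it encodes prosaposin, the precursor of the saposins that present sphingolipids to their hydrolases, and measured 569, 540.4 and 525 FPKM under AQP4-IgG and 518, 466 and 487 FPKM under Control-IgG. The groups did not overlap, and the means of 545 ± 22.4 and 491 ± 26 FPKM differed 1.11-fold (log2 fold change 0.15, SE 0.051, adjusted p = 0.216 in limma). Grn encodes progranulin, a secreted and lysosomal glycoprotein that binds prosaposin. It averaged 93.9 ± 2.85 and 92.7 ± 5.19 FPKM and overlapped, with an interval of -0.09 to 0.13.

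**Figure D3:**
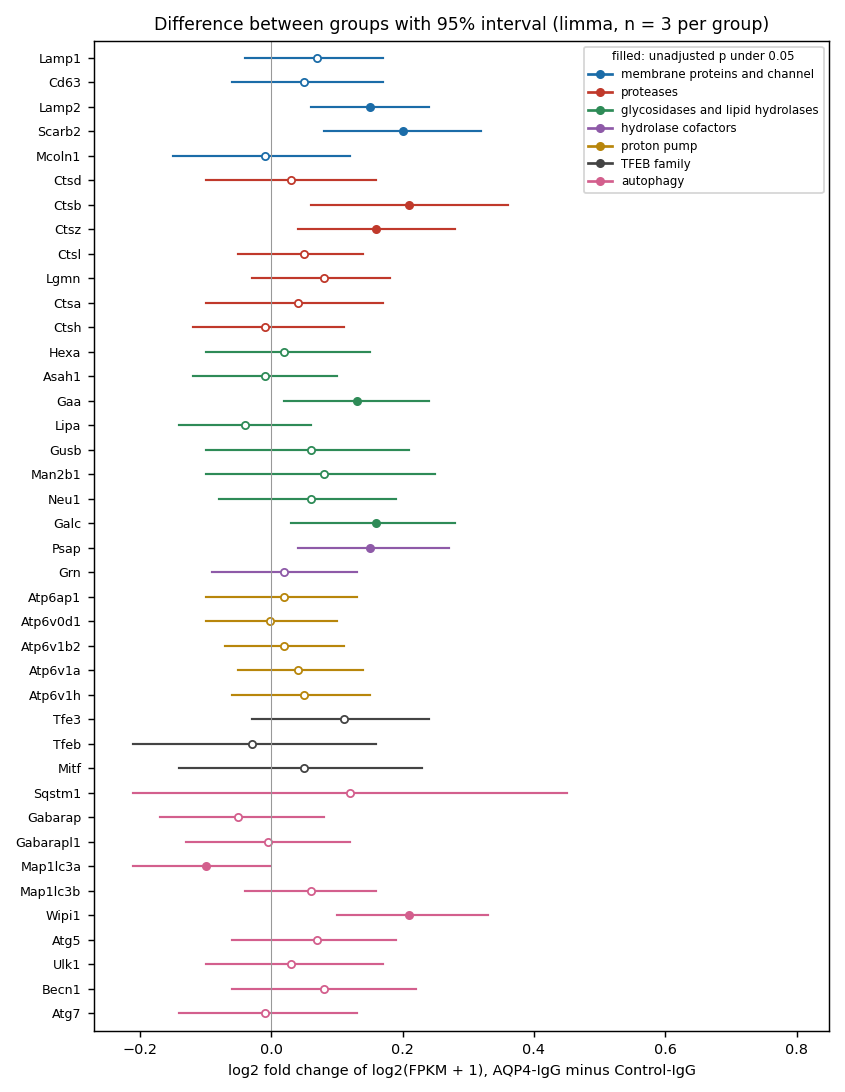
Fitted log2 fold change of each of the 40 genes (point) with its 95% interval (line) from limma, n = 3 libraries per group; colours mark role groups and filled points an unadjusted p under 0.05. Filled points above 0 are Lamp2, Scarb2, Ctsb, Ctsz, Gaa, Galc, Psap and Wipi1, the filled point below 0 is Map1lc3a, and Sqstm1 has the widest interval.

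Differences were smallest in the proton pump. The V-type ATPase couples ATP hydrolysis in its V1 sector to proton transport through its membrane V0 sector. Its 5 members had log2 fold changes from -0.0017 to 0.05, standard errors of 0.041 to 0.050 and adjusted p of 0.761 or more in limma. Atp6ap1, an accessory subunit and the most abundant, read 125, 115 and 117 FPKM under AQP4-IgG and 123, 111 and 119 FPKM in the controls, with the number 1 library highest in both groups. Atp6v0d1, of the V0 sector, averaged 79.6 ± 3.01 and 79.7 ± 3.03 FPKM. Its promoter and that of Atp6v1a, the catalytic subunit, hold the TCACGTGA shown above. Atp6v1a had the smallest p of the pump, 0.322 before adjustment, and read 32.6, 33.2 and 33.4 FPKM against 33.3, 32.1 and 30.6 FPKM, with overlap. Atp6v1b2, a regulatory V1 subunit, averaged 39.4 ± 0.912 and 38.8 ± 1.22 FPKM.

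For Atp6v1h, the V1 subunit H, the groups did not overlap, with 10.8, 10.2 and 10.3 FPKM against 10.1, 9.98 and 10.1 FPKM. The difference was small, 1.04-fold, with an adjusted p of 0.773 in limma. The 95% intervals of the 5 genes together reached from -0.10 to 0.15, the narrowest span of any role group.

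The transcription factors were low and overlapped. Tfe3, the most abundant of them, measured 8.07, 7.78 and 7.47 FPKM under AQP4-IgG and 7.72, 6.81 and 6.92 FPKM under Control-IgG (log2 fold change 0.11, SE 0.060, adjusted p = 0.524 in limma). Tfeb averaged 2.08 ± 0.238 and 2.13 ± 0.131 FPKM, and Mitf 2.09 ± 0.0732 and 2.00 ± 0.266 FPKM. At these levels the pseudocount of 1 compresses the scale, so the log2 fold changes of Tfeb and Mitf, -0.03 and 0.05, understate their ratios. Transcript levels do not report the activity of these factors, which depends on their phosphorylation and entry into the nucleus. The 5 genes with TCACGTGA in a promoter window had log2 fold changes of -0.01 to 0.04, a median of 0.03, and 0 of them had an unadjusted p under 0.05. The 11 genes with CACGTG, these 5 included, had a median of 0.04, and 1 had an unadjusted p under 0.05. The 22 genes with a window but without CACGTG had a median of 0.06 and a range of -0.05 to 0.21, and 6 had an unadjusted p under 0.05. The 7 genes without a window had a median of 0.02 and a range of -0.1 to 0.21, and 2 had an unadjusted p under 0.05. Of all 12334 genes tested, 1643 had an unadjusted p under 0.05 in limma. Whether the element bears on the differences was not tested.

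Of the 10 autophagy genes, Wipi1 was highest under AQP4-IgG and Map1lc3a lowest relative to control. WIPI1 binds the phosphatidylinositol 3-phosphate of forming autophagosomes. Its gene, on the minus strand of chromosome 11 (109573331 to 109611967), measured 23.0, 22.9 and 20.8 FPKM under AQP4-IgG and 18.7, 19.4 and 18.9 FPKM under Control-IgG. The groups were well apart and the control libraries close together. The means of 22.2 ± 1.25 and 19.0 ± 0.371 FPKM differed 1.17-fold, the largest ratio among the 40, or by 0.21 log2 units (SE 0.050, 95% interval 0.10 to 0.33, adjusted p = 0.074 in limma). Over the main fit and 14 alternatives its adjusted p ranged from 0.0212 to 0.271.

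LC3 and GABARAP proteins are the ubiquitin-like tags of the autophagosome membrane. Map1lc3a, on chromosome 2 (155276297 to 155278073, plus strand), measured 51.3, 51.7 and 49.5 FPKM under AQP4-IgG and 57.2, 51.9 and 55.2 FPKM under Control-IgG. The groups were separated only narrowly, at 51.7 and 51.9 FPKM, and the log2 fold change of -0.10 (SE 0.045) had an adjusted p of 0.364 in limma. Its paralogue Map1lc3b lay on the other side of 0, at 31.8 ± 0.885 and 30.5 ± 1.33 FPKM (log2 fold change 0.06, adjusted p = 0.683 in limma), with overlap. Gabarap averaged 148 ± 5.82 and 153 ± 9.50 FPKM and Gabarapl1 68.8 ± 2.91 and 69.1 ± 4.62 FPKM. Control-IgG 1 was the highest library of Map1lc3a, Gabarap and Gabarapl1. For Gabarapl1, 28.3% of exon bases overlap a gene on the opposite strand.

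Sqstm1, the p62 receptor that links ubiquitinated cargo to LC3, was the most abundant autophagy gene and the most variable of the 40. It measured 194, 176 and 148 FPKM in AQP4-IgG 1, 2 and 3, and 184, 155 and 138 FPKM in Control-IgG 1, 2 and 3. The spread within each group, with an SD of 23.1 FPKM in both, exceeded the difference of their means of 173 and 159 FPKM. In both groups the level fell from library 1 to library 3, so the spread followed the same order in each. At each library number Sqstm1 was higher under AQP4-IgG, though whether the numbers are pairs is not settled. Its log2 fold change of 0.12 (SE 0.14, 95% interval -0.21 to 0.45) had an adjusted p of 0.81 in limma and ranged from 0.03 to 0.23 with 1 library left out. Of its exon bases 17.3% overlap Mrnip on the opposite strand.

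Ulk1, Becn1, Atg5 and Atg7, which like Wipi1 act in forming the autophagosome, overlapped between groups. Ulk1, the initiating kinase, averaged 10.2 ± 0.63 and 9.91 ± 0.452 FPKM, and Becn1, of the lipid kinase complex, 8.29 ± 0.237 and 7.82 ± 0.6 FPKM. Atg5, part of the conjugate that attaches LC3 to lipid, averaged 12.9 ± 0.603 and 12.3 ± 0.663 FPKM. Atg7, the enzyme that activates both conjugation systems, averaged 6.53 ± 0.24 and 6.58 ± 0.407 FPKM. Their log2 fold changes lay between -0.01 and 0.08, with adjusted p of 0.70 or more in limma. For Becn1, 43.9% of exon bases overlap Cntd1 on the opposite strand.

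Summed over members, levels differed by a few percent between groups. All 40 genes together held 3493, 3313 and 3249.6 FPKM in AQP4-IgG 1 to 3 and 3383, 3050.2 and 3133 FPKM in Control-IgG 1 to 3, and the groups overlapped. Psap and Grn were the only role group whose sums did not overlap, at 617 to 666 FPKM against 557 to 617 FPKM, with AQP4-IgG 3 and Control-IgG 1 almost level. Proton pump sums were 276 to 291 FPKM and 269.6 to 290 FPKM. The 8 listed fibroblast and mural genes summed to 2184 to 2541 FPKM under AQP4-IgG and 2855 to 3129 FPKM under Control-IgG, most of it Acta2, and the 14 astrocyte genes to 585 to 662 and 535 to 602 FPKM. Their part in the levels of lysosome and autophagy genes was not tested. Of the marker lists, 5 of 7 neuron and 3 of 5 endothelial genes were not among the genes the authors listed.

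**Figure D4:**
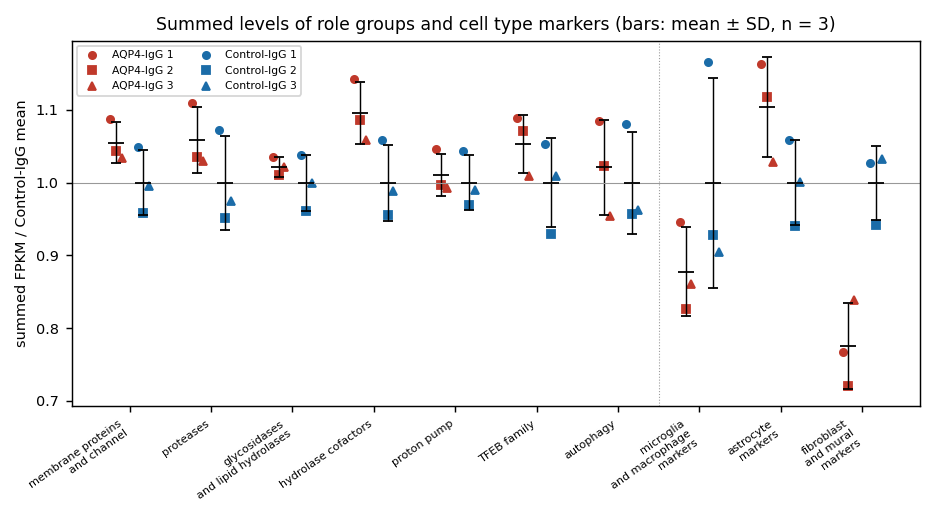
Summed FPKM of each role group and of 3 marker lists in each library, divided by the Control-IgG mean of that list; symbols are libraries, black bars mean ± SD with n = 3. AQP4-IgG means of the role groups lie between 1.01 and 1.10 times the control mean (0.999 for the proton pump under median scaling), while Control-IgG 1 lies above the other libraries for microglia and macrophage markers.

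The wider pathway, 7 lists with 195 tested genes outside the 40, also held 0 genes past the adjusted p in limma. At an unadjusted p under 0.05, 11 lay higher and 5 lower, or 5.64% on the higher side, where 7.64% of all genes lay higher and 5.68% lower. Their median log2 fold change was 0.018. Among other hydrolases and cofactors, 5 of 40 lay higher and 0 lower at that level, with a median of 0.036. Arsb, arylsulfatase B, had the smallest p of that list, at 15.8, 15.7 and 15.2 FPKM against 13.9, 13.3 and 13.4 FPKM (1.15-fold, adjusted p = 0.0659 in limma). Manba, Tpp1 and Glb1 were among the others, named like the further genes of this and the next 2 paragraphs after their values were seen. Tpp1, a tripeptidyl peptidase lost in a childhood ceroid lipofuscinosis, averaged 50.8 ± 0.147 and 47.2 ± 0.763 FPKM.

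Other membrane and sorting genes had 3 higher and 1 lower of 36. Abca2, a lipid transporter of late endosomes and lysosomes, averaged 12.3 ± 0.411 and 10.6 ± 0.145 FPKM (1.16-fold, adjusted p = 0.0734 in limma). The mannose 6-phosphate receptors, which deliver newly made hydrolases, lay on opposite sides. Igf2r, the cation-independent receptor, averaged 12.8 ± 0.239 and 11.1 ± 0.601 FPKM, and M6pr, the cation-dependent one, 92.8 ± 5.76 and 103 ± 4.75 FPKM, with neither past the test. Laptm4a was the remaining gene of the 4.

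Of the other V-ATPase subunits 0 of 14 lay higher and 1 lower, Atp6v0e at 38.5 ± 1.61 and 43.0 ± 2.88 FPKM. The lists of mTORC1 and lysosomal nutrient sensing and of late endosome and lysosome fusion had medians of -0.006 each. In the fusion list 1 of 22 lay higher, Rab5c, and 1 lower, Stx7, a SNARE of late endosomes, at 26.9 ± 0.191 and 29.3 ± 0.421 FPKM (adjusted p = 0.177 in limma). In the mTORC1 list, 0 of 30 lay higher and 1 lower, Rheb, the GTPase that activates mTORC1, at 15.5 ± 0.241 and 16.7 ± 0.12 FPKM. Among 36 other core autophagy genes 2 lay higher and 0 lower, with a median of 0.015. They were Atg4c and Nrbf2, the latter a partner of the Beclin-1 complex, at 5.45 ± 0.255 and 4.52 ± 0.494 FPKM. Of 17 autophagy receptors 0 lay higher and 1 lower, Tex264, a receptor for the endoplasmic reticulum, at 43.1 ± 2.13 and 48.4 ± 1.08 FPKM (adjusted p = 0.128 in limma).

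**Figure D5:**
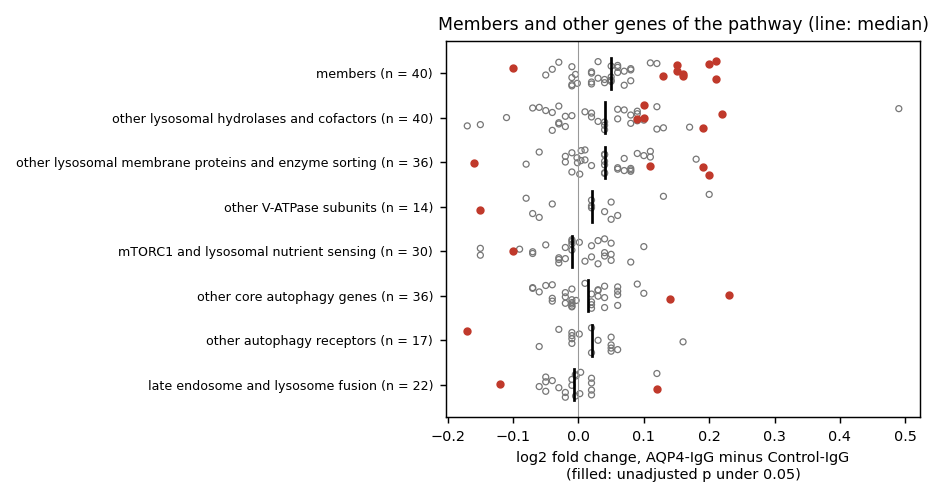
Fitted log2 fold change, AQP4-IgG minus Control-IgG, of each tested gene of the 40 members and of 7 further lists of the pathway; the black line is the list's median and filled points have an unadjusted p under 0.05. Medians lie between -0.006 and 0.047, and 0 genes in the plot passed the adjusted p of 0.05.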

How the data were processed

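RNA-seq of 6 libraries was analysed from 1 deposited table. Per the labels, total RNA (Qiagen RNeasy) went into SMARTer mRNA libraries. GRCm38 and mm10 are the builds in the submitters' processing notes; aligner, counter and strand setting, being not given in the sources used here, are unknown. The header names no unit: the authors deposited values read as FPKM because, times the GENCODE M21 exon length, they are whole multiples of 1 step per library, within 0.1 reads for 98.99% to 99.14% of values under 200 reads (13291 genes with equal coordinates). The table also holds the authors' log2 fold changes and p-values, by a method the files do not state. Listed genes have a larger group mean of at least 0.5 FPKM. The columns marked control were taken as Control-IgG 1 to 3 and those marked NMO as AQP4-IgG 1 to 3.

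Limma 3.58.1 (R 4.3.3), with trend and robust variances, was fitted on log2(FPKM + 1) for genes averaging 1 FPKM or more; all 40 members passed. Alternatives were median scaling, no trend, no robust variances, a pseudocount of 0.1, other filters, a replicate block, leaving out each library, and limma-voom on recovered reads. With 3 against 3 an exact permutation p cannot go below 0.1. Members and lists were chosen with earlier results of these data known. Values by library are given for members past an unadjusted p of 0.05 without overlap and for the most abundant and the smallest-p member of each role group, and means or ranges for the others. Of each further list the gene with the smallest p is named by rule. Of the further genes past an unadjusted p of 0.05, 1 is not reported here.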

Additional observations from a re-analysis of the deposited data

How the results depend on the processing

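The count of members called higher was 0 in the main fit and 0 with median scaling, without the trend, without robust variances, with a pseudocount of 0.1 and with no filter. It was 1 with a minimum mean of 10 FPKM, 3 in limma-voom and 0 to 1 with a library left out; the cause was not tested. The count called lower was 0 throughout. With the replicate number as a block the count called higher was 5 (Ctsb, Ctsz, Psap, Scarb2 and Wipi1), beside 3.18% of all genes called higher. Sqstm1 had an adjusted p of 0.0792 in limma with that block and of 0.81 in the main fit. Deviations of same-numbered libraries correlated at 0.2, 0.00891 and 0.202 over 12334 genes, and those of unlike-numbered libraries at -0.268 to 0.0818. The number 2 libraries thus lay within the range of the unlike-numbered ones, and the others above it. These values do not settle whether the numbers are pairs, and the main fit did not pair them. The median log2 fold change of members stayed between 0.019 and 0.083, and median scaling put the median of all genes at -0.015.

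Of the 40 members, 26 kept their sign in every fit and 14 near 0 did not. Leaving out a library gave ranges of -0.04 to 0.03 for Asah1, -0.05 to 0.02 for Atg7, -0.02 to 0.05 for Atp6ap1, -0.03 to 0.03 for Atp6v0d1, -0.01 to 0.10 for Ctsa and -0.01 to 0.09 for Ctsd. The ranges were -0.05 to 0.03 for Ctsh, -0.05 to 0.04 for Gabarapl1, -0.01 to 0.06 for Grn, -0.01 to 0.08 for Hexa, -0.04 to 0.04 for Mcoln1, -0.02 to 0.11 for Mitf, -0.06 to 0.04 for Tfeb and -0.01 to 0.08 for Ulk1. Median scaling put Atp6ap1 at -0.00012.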

Other observations

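Ratios between members cancel whatever scales a whole library, and 4 were computed after the values were seen. The ratio of Ctsb to Ctsd, the main cysteine and aspartic cathepsin transcripts here, was 0.436, 0.431 and 0.412 in AQP4-IgG 1 to 3 and 0.376, 0.372 and 0.379 in Control-IgG 1 to 3. The ratio of Psap to Grn was 5.86, 5.85 and 5.7 against 5.25, 5.16 and 5.47. That of Map1lc3a to Map1lc3b was 1.57, 1.62 and 1.60 against 1.78, 1.75 and 1.84. In these 3 ratios the groups did not overlap, and the spread within a group was smaller, relative to its mean, than for the single genes. Each had a two-sided exact permutation p of 0.1, the smallest that 3 against 3 can give, and a Benjamini-Hochberg adjusted p of 0.133 over the 4. Ctsb, Psap and Map1lc3a were already known not to overlap between groups, and these p-values do not account for that choice. Sqstm1 to Map1lc3b was 5.95, 5.51 and 4.80 against 5.73, 5.23 and 4.61, with overlap (exact permutation p = 0.6). Ctsd shares 32.4% of its 50-base stretches with Gm49369, so the first ratio carries that uncertainty.

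Rnaset2b, a ribonuclease gene outside the 40 that was singled out after its values were seen, stood at 19.1 FPKM in AQP4-IgG 1 and between 7.14 and 9.50 FPKM in the other 5 libraries. Rnaset2a, of the same list, stood between 16.6 and 20.4 FPKM. Sequence shared with other genes was checked for the 40 and not for Rnaset2b, so how reads were divided between such genes is unknown.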
